A study of Mus musculus with 14 samples.

Results

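The RNA of mouse embryonic stem cells sorted for a high signal of an Oct4-GFP reporter, Oct4-GFP-H-ESC, was compared with that of the unsorted Oct4-GFP-ESC line. A gene entered the comparison if it reached 1 FPKM on one side or the other, which held for 12003 of the 13180 genes of the deposited table. FPKM is a count of sequenced fragments scaled by transcript length and by the depth of the library. Each difference is a log2 ratio, log2((FPKM + 1) ratio) of sorted over unsorted cells, which understates the change of low genes. There was 1 library a side, so no difference has a replicate check, no test was made, and a gene counts as higher or lower by size alone, at a ratio of at least 2-fold.

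Oct4-GFP-ESC carry green fluorescent protein as a reporter of Oct4 (gene Pou5f1) and were kept in serum with the cytokine LIF at 10 ng/ml, on fibroblast feeders stopped from dividing with mitomycin C. Oct4-GFP-H-ESC are cells of that line with a high GFP signal. A pair of further libraries gives context: DR-ESC, cells still GFP-positive on day 8 of neural differentiation in N2B27 medium and then returned to embryonic stem cell medium, and NPC(GFP-), the GFP-negative cells of day 8. The sources used here do not give the mouse strain, the construct of the reporter, the gate of the sort or how long cells were kept after it. Levels in 4 libraries are listed in the order Oct4-GFP-ESC, Oct4-GFP-H-ESC, DR-ESC and NPC(GFP-).

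Oct4 is a transcription factor that holds stem cells in the pluripotent state, and its RNA falls as they differentiate. Serum cultures are known to be mixed: most cells are pluripotent, some begin to express genes of the primitive streak, where mesoderm and endoderm arise in the embryo, and rare cells pass for a time through a 2-cell-like state, in which genes of the early cleavage embryo such as Zscan4 are transcribed. In bulk RNA, fewer cells of a type and less RNA per cell cannot be told apart.

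Both libraries had the markers of embryonic stem cells, but RNA of Pou5f1, which the reporter follows, was not higher in the library labelled as high. All 7 stem cell markers were above 1 FPKM in each, with sums of 3691 FPKM in unsorted and 2195 in sorted cells. Markers of feeder fibroblasts, 11 of 13 in the table and all above 1 FPKM, had nearly the same FPKM as deposited in both. Their sums were 266 and 259 FPKM, against 15.3 in DR-ESC and 16.5 in NPC(GFP-). All genes summed to 687303 FPKM in unsorted and 437605 in sorted cells, so a like FPKM is not a like share of each library. The part of feeder RNA in the results was not tested. Blood markers summed to 12.6 and 15.9 FPKM, and trophoblast markers to 4.55 and 6.89. Sums of neuron markers were 167 and 69.7 FPKM, of neural progenitor markers 18.4 and 11.6, of endoderm markers 27.4 and 16.6, and of mesoderm markers 23.3 and 7.66. Pou5f1 had 1881, 1037, 609 and 0.276 FPKM. Its level was thus lower in the cells sorted for high GFP, with a log2 ratio of -0.86, and -0.06 relative to genes of like abundance. The GFP transcript itself was not analysed here.

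Of the 12003 genes, 118 (0.983%) were higher and 320 (2.67%) lower in Oct4-GFP-H-ESC. The median log2 ratio of all genes was -0.31, and the middle 50% ran from -0.56 to -0.03. The difference ran with abundance: of 10 equal groups of genes ordered by level, the lowest had a median of -0.09 and the highest -0.67, and the 75 lower genes of that top group faced 0 higher ones. Each ratio is therefore also given with the abundance trend removed, that is, less a running median over genes of like mean level. That left 214 genes (1.78%) higher and 67 (0.558%) lower. All 118 higher genes were among the 214, and all 67 were among the 320. The medians of all 10 groups were below 0, so removal of the trend raises ratios. This overlap therefore follows from the sign of the trend and is not a check of the calls. Counts of list members are to be read against these shares of all genes. Scaling both libraries to equal sums of FPKM, which were 687303 and 437605 as deposited, would put the median of all genes at 0.26, so the sign of a modest ratio rests on the scaling. The ratio also ran with the span of the gene on the chromosome, from a median of -0.50 in the shortest of 5 equal groups (median 4.19 kb) to -0.10 in the longest (109 kb), and from -0.12 to 0.14 with the abundance trend removed. The parts that depth, RNA quality or the sort had in these trends were not tested.

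**Figure D1:**
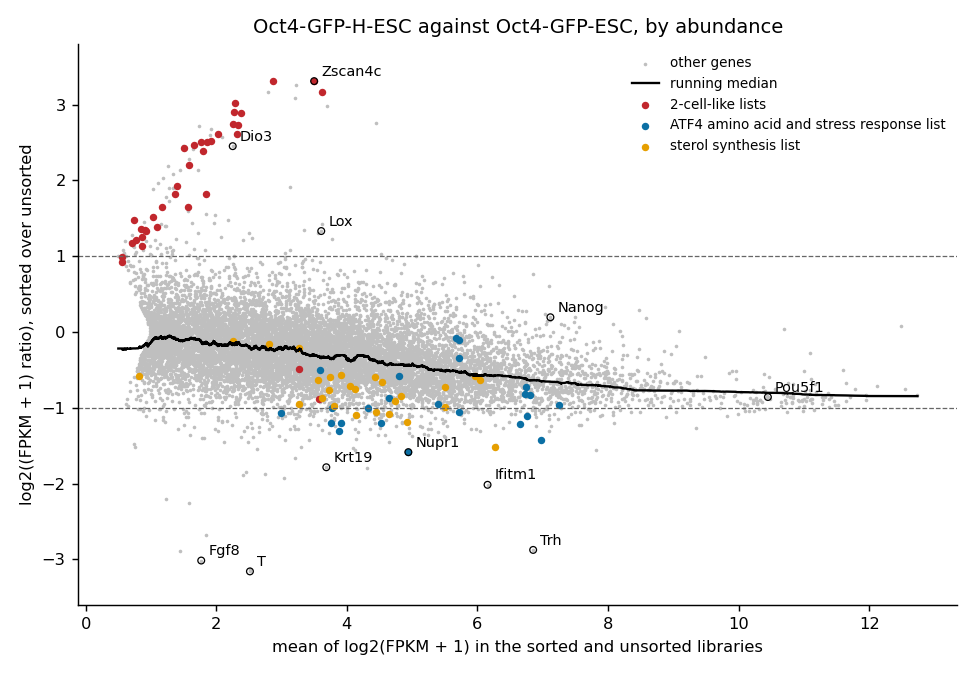
Each point is 1 of the 12003 genes. The x axis is the mean of log2(FPKM + 1) in both libraries, the y axis log2((FPKM + 1) ratio) of sorted over unsorted cells, the line the running median and the dashed lines the 2-fold size. Genes of the 2-cell-like lists stand above it at low abundance, while T, Fgf8, Trh and Ifitm1 stand below, and Pou5f1 lies on the running median.

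**Figure D2:**
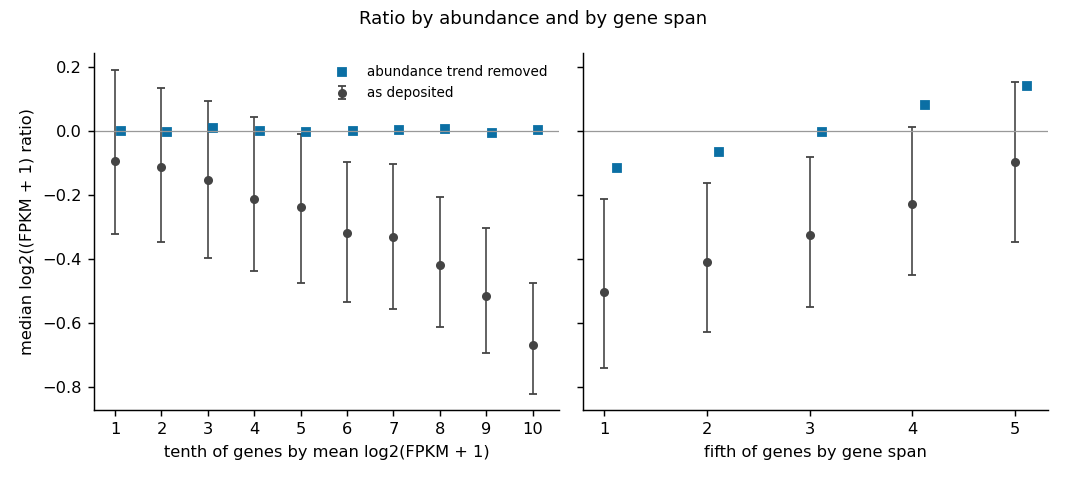
Median log2((FPKM + 1) ratio) in 10 equal groups of genes ordered by abundance (left) and in 5 ordered by gene span (right). Bars span the middle 50% of genes as deposited. The median goes from -0.09 to -0.67 with abundance, and the span trend is weaker but still present with the abundance trend removed (-0.12 to 0.14).

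Genes near the size show how thin its edge is. Laptm5, a lysosomal membrane protein of blood cells, had 22.7 and 46.4 FPKM and a log2 ratio just above 1, while P2rx7, an ATP-gated ion channel, had 0.735 and 2.44 and one of 0.99. Lyar, a nucleolar protein, had 218 and 108 FPKM and counted as lower. Smarce1, a subunit of a chromatin remodelling complex, had 60.3 and 29.7 and did not. The higher genes were mostly scarce: their median was 0.521 FPKM in unsorted and 4.15 in sorted cells, and 85 of the 118 were under 1 FPKM in unsorted cells. Such a gene entered the comparison through the sorted library alone, so its ratio had to be positive, though not past the size. Lower genes were more abundant, with medians of 29.8 and 12.7 FPKM. Of these, 6 were listed at 0 in the sorted library, and 4 of the 6 are small nucleolar RNA genes, which are not described. Among the 320 lower genes 32 were under 1 FPKM in sorted cells. Those 32 entered the comparison through the unsorted library alone, so their ratios had to be negative, though not past the size.

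The clearest difference was in 2-cell-like genes, which were higher in the sorted cells. All 6 Zscan4 genes in the table, which encode zinc-finger proteins of the 2-cell embryo linked to telomere maintenance, were higher, with log2 ratios from 2.61 to 3.31. Of 30 other 2-cell-like genes 26 were higher and 0 lower, with a median of 1.65, against 0.983% of all genes. Of the 36, 3 Zscan4 genes and 27 others were under 1 FPKM in unsorted cells, so this count is a description and not a test. The 2-cell-like lists hold 32 of the 118 higher genes.

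Zscan4c lies at chr7:11005745-11010547 (GRCm38.p6, as for all positions here) and had 2.59, 34.6, 36.4 and 0.0170 FPKM in the 4 libraries. Zscan4f had 3.10, 35.8, 37.8 and 0.0433. Zscan4b, with 0.721, 12.9 and 14.9 FPKM, was listed at 0 in NPC(GFP-). Oct4-GFP-H-ESC and DR-ESC were thus alike and high, Oct4-GFP-ESC low, and NPC(GFP-) at or near 0. Zscan4a, Zscan4d and Zscan4e were lower in level, between 11.3 and 11.95 FPKM in sorted and between 0.848 and 1.02 in unsorted cells. These genes are near-identical copies, so reads may be shared among them and the level of each is uncertain. To show how alike they are, the stretch upstream of the start of 4 of them, as RefSeq gives it in GRCm38.p6, is printed with the TATA box letters TATAAA in capitals. The stretches lie at chr7:10905066-10905141 for Zscan4b and chr7:11166198-11166273 for Zscan4d, both on the minus strand, and at chr7:11005631-11005706 for Zscan4c and chr7:11397824-11397899 for Zscan4f, both on the plus strand.
Zscan4b: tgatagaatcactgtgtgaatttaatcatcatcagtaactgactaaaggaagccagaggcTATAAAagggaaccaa
Zscan4c: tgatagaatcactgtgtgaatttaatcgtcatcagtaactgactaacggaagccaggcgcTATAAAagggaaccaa
Zscan4d: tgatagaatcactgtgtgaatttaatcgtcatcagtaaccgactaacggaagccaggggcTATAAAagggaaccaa
Zscan4f: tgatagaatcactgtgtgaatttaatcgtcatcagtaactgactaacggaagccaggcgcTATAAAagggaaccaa
Zscan4c and Zscan4f were identical over all 76 bases, and Zscan4b shared 72 of 76 with each of the other 3. Searched on both strands, TATAAA occurred in all 4 of the Zscan4 promoter windows at hand, in 8.65% of the windows of 9336 compared genes and in 15.7% of all 27025, each window running from 250 bases before to 50 after the start. A match is a description, not evidence of a binding site.

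Other families of copied genes were higher as well. Tcstv1 and Tcstv3, named for their 2-cell-stage transcripts, had 0.913 and 0.526 FPKM in unsorted and 5.78 and 7.63 in sorted cells. The Usp17l family, deubiquitinating enzymes also named Dub, had 5 of 5 compared genes higher, against 0.983% of all genes. However, all 5 were under 1 FPKM in unsorted cells and could enter the comparison only with a positive ratio. Dub3 had 0.919, 13.2 and 10.2 FPKM in the first 3 libraries, and Usp17l5 had 0.517, 6.90 and 5.78; both were listed at 0 in NPC(GFP-). Of the Prame family, leucine-rich repeat proteins of the early embryo and germ line, 8 of 12 compared genes were higher, and these 8 too were under 1 FPKM in unsorted cells. Dux (0.200 and 2.01 FPKM), the double homeobox activator of the 2-cell programme, and Zfp352 (0.221 and 1.69) were higher from low levels. Sp110, a nuclear body protein, had 0.778, 12.3, 8.36 and 0.0408 FPKM. Tmem92, a membrane protein, had 0.420, 7.10 and 11.1 FPKM, and Arg2, the mitochondrial arginase, 0.676, 4.27, 4.58 and 0.407. Against the list, Zfp277 had 15.1 and 7.71 FPKM (log2 ratio -0.89) and Tbpl1, a TATA-binding protein relative, 10.4 and 7.11 (-0.49); both were also present in NPC(GFP-), at 6.81 and 18.2 FPKM.

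**Figure D3:**
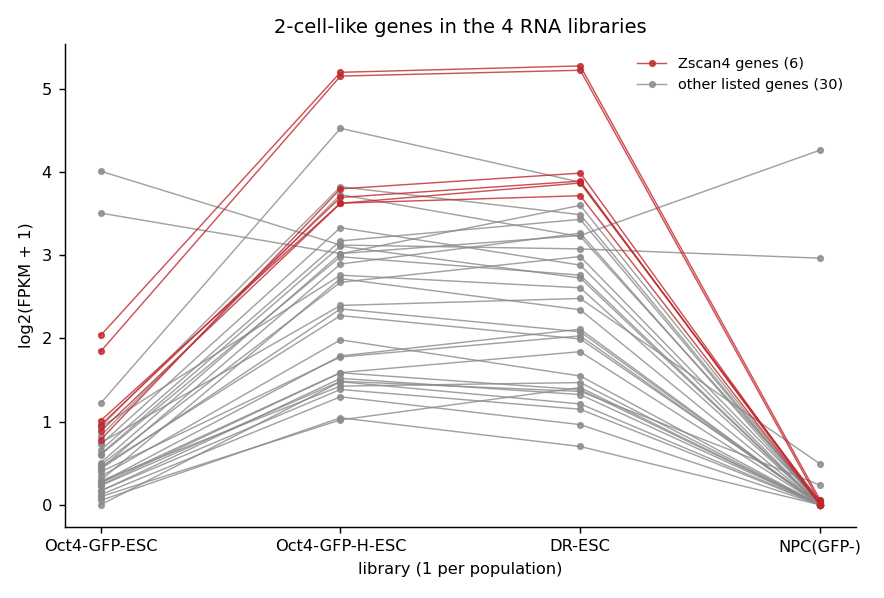
Each line is 1 of 36 genes of the 2-cell-like lists, and the y axis is log2(FPKM + 1) in each of the 4 RNA libraries. Zscan4 genes are drawn in red. Nearly all lines are high in Oct4-GFP-H-ESC and DR-ESC, low in Oct4-GFP-ESC and near 0 in NPC(GFP-); the exceptions that start near 4 are Zfp277 and Tbpl1.

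Higher and lower genes both included runs of neighbours on the chromosomes, dense among the higher genes and mostly sparse among the lower. Taking at least 3 genes of the same direction with starts no more than 1 Mb apart, 5 runs held 27 of the 109 higher genes with a position, and 20 runs held 75 of the 308 lower genes. The Zscan4 run (chr7:10794241-11402318) held 6 higher genes of 6 compared in it. A Dub run (chr7:104767961-104862667) held 3 of 3, a run with Tcstv1 and Tcstv3 (chr13:119827961-120318261) 6 of 6, a run of Prame genes (chr4:143535954-144364419) 5 of 6 and a run of predicted genes (chr12:87514316-88321762) 7 of 7. Of the 27 genes 21 were under 1 FPKM in unsorted cells, so that their ratios had to be positive, and these counts are a description only. These neighbours are mostly copies of one another and are not independent of each other. Among the lower genes, a run of 5 (chr3:107895854-108445259) held Gstm1, Gstm3, Gstm5 and Gstm6, of the glutathione S-transferases, and Sars, with 18 genes compared in it. Most lower genes in runs were spread among others within the size. The runs went from 3 of 4 compared genes on chr13 to 6 of 57 on chr17 and 4 of 47 on chr7. Over all genes 0.983% were higher and 2.67% lower. How many runs would arise without any grouping was not tested.

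Outside the lists, several scarce genes of varied function were among the highest. Chit1 (chr1:134111242-134151541), a chitinase of macrophages, had 0.905, 13.2, 12.8 and 0.0233 FPKM. Dcdc2c, a doublecortin-domain protein, was the most abundant of the 15 highest named genes, with 7.40, 55.8, 50.7 and 3.55 FPKM (log2 ratio 2.76). In both genes DR-ESC were close to the sorted cells. Dio3 (chr12:110279230-110281097), an imprinted gene for the enzyme that inactivates thyroid hormone, had 1.04, 10.1, 3.71 and 0.190 FPKM and was the single imprinted gene of 32 compared that was higher. Guca1a, a calcium-binding activator of guanylate cyclase in photoreceptors, had 3.50, 15.98, 8.38 and 0.0529 FPKM; it was chosen here after its values were seen.

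Germline and meiosis genes leaned to higher values in the sorted cells, with few past the size. Of 38 compared, 3 were higher and 1 lower (median log2 ratio 0.21, against -0.31 for all genes), where 0.983% of all genes were higher and 2.67% lower. The ratios of 23 were above 0 and of 15 below. Removal of the trend put 8 past the size as higher, against 1.78% of all genes, and 0 as lower (median 0.38). Of the 38, 4 were under 1 FPKM in unsorted cells, Dazl among them. These 4 entered the comparison through the sorted library alone and had to have positive ratios, so the counts are a description and not a test. Taf7l, a germ cell TFIID subunit, had 1.71, 6.54, 4.93 and 0.0812 FPKM. Dazl, which binds RNA and drives germ cell development, had 0.712, 2.99 and 8.002 FPKM, with none listed in NPC(GFP-). Sycp1, a protein of the synaptonemal complex that joins paired chromosomes, had 2.41, 5.86, 3.58 and 0.0109. Members of the list named after their values were seen, none of them past the size as deposited, included some with a role in restraining transposons: Piwil2, a piRNA-binding protein, had 5.81 and 11.6 FPKM (0.89), Mael, a piRNA pathway factor, 12.1 and 21.7 (0.80), Mov10l1, a piRNA helicase, 1.84 and 4.002 (0.82), Tex19.1, which restrains retrotransposons, 45.9 and 65.4 (0.50) and Dnmt3l, a cofactor of DNA methylation, 220 and 277 (0.33). The piRNA pathway members Tdrd12, with 13.2 and 8.23 FPKM (-0.62), and Pld6, with 4.01 and 1.87 (-0.80), had ratios below 0. So did some meiosis genes: Stra8, which starts meiosis, had 23.3 and 11.7 FPKM (-0.93) and Syce2, another synaptonemal complex protein, 66.4 and 28.3 (-1.20).

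Genes that specify primordial germ cells, the founders of the germ line, stood on the lower side. Of 22 compared, 5 were lower and 0 higher (median -0.74, and -0.17 with the trend removed, when 2 were lower), against 2.67% of all genes lower as deposited and 0.558% with the trend removed. Dppa3, a maternal-effect chromatin protein of naive and germ cells, had 27.4, 10.4, 23.2 and 0.0577 FPKM. Tfap2c, a transcription factor needed for these cells, had 31.9, 13.3, 28.8 and 0.228, and Ifitm1, an interferon-induced membrane protein, 142, 34.4, 71.8 and 0.643. For all 3 genes the sorted library was lower than both Oct4-GFP-ESC and DR-ESC. Prdm1, a repressor that sets germ cell fate, had 2.68 and 1.24 FPKM (-0.71), while its partner Prdm14 had 5.66 and 4.38 (-0.31).

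Core pluripotency factors were all within the size as deposited, and removal of the trend brought some ratios closer to 0 and moved others away. Of 17 core factors 0 were higher and 0 lower (median -0.33, and 0.24 with the trend removed). Sox2, partner of Oct4, had 232, 147, 155 and 103 FPKM, which gave a log2 ratio of -0.66, or 0.03 without the trend. Nanog (chr6:122707489-122714633), which stabilises the pluripotent state, had 129, 148, 145 and 0.0918 FPKM, 0.19 and 0.85. Fbxo15, a target of Oct4, had 52.4, 80.2, 87.8 and 4.17 FPKM, and was the core gene past the size with the trend removed (0.60 and 1.18). Dppa2, a chromatin protein of pluripotent cells, had a ratio of 0.95 with the trend removed, and Tdgf1, a co-receptor of Nodal, 0.79. Among 22 naive-state genes 2 were lower, Dppa3 and Tcl1 (24.7 and 10.8 FPKM), a co-activator of the kinase Akt; with the trend removed their ratios were -1.01 and -0.78. Esrrb (149 and 97.0) and Klf4 (109 and 72.6), transcription factors of the naive state, had log2 ratios of -0.61 and -0.57 that were 0.03 and 0.01 with the trend removed. Formative and primed genes, which come up as cells leave the naive state, included 2 lower genes of 20: Otx2, a homeobox factor of the epiblast, with 14.7, 6.34, 22.5 and 0.0231 FPKM, and Zic2, a zinc-finger factor, with 10.3, 4.42, 52.7 and 8.66. Neither was past the size with the trend removed (-0.79 and -0.86), and the primed epiblast gene Fgf5 had 1.86 and 0.716 FPKM.

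A small set of primitive streak genes was much lower in the sorted cells, and most of their list was not. Of 25 streak and early mesoderm genes 6 were lower and 0 higher (median -0.41, and 0.081 with equal sums), and 5 were lower with the trend removed, against 2.67% and 0.558% of all genes. Of the 25, 3 were under 1 FPKM in sorted cells, T and Fgf8 among them. These 3 entered the comparison through the unsorted library alone and had to have negative ratios. Another 2 were under 1 FPKM in unsorted cells and had to have positive ones, so these counts are a description and not a test. T (chr17:8434423-8442496), the Brachyury transcription factor, had 16.1, 0.914, 1.01 and 0.261 FPKM, and Fgf8 (chr19:45736491-45742941), a growth factor of the streak, 8.70, 0.199, 12.1 and 0.132. Trh, the thyrotropin-releasing hormone precursor, had 312, 41.7 and 92.9 FPKM in the stem cell libraries, with 0 listed in NPC(GFP-). T was low in DR-ESC too, whereas Fgf8 there exceeded Oct4-GFP-ESC and Trh lay between. Sp5, a direct target of Wnt signals, had 7.46, 2.42, 1.32 and 0.0371 FPKM, and Dll3, a Notch pathway protein, 3.17, 1.03, 3.01 and 24.95. The other 19 were within the size and ran from -0.90 for Lefty2 to 0.81 for Hand1, a factor of extraembryonic mesoderm. Lhx1, a factor of the organiser, had 1.12 and 0.143 FPKM (-0.89), Gata4, a factor of endoderm and heart, 14.1 and 7.45 (-0.83), and Dll1, a Notch ligand, 0.970 and 2.36 (0.77). Nearer to 0, Eomes, a T-box factor of mesendoderm, had 6.89 and 6.40 FPKM (-0.09), Bmp4, a growth factor, 9.97 and 10.4 (0.05) and Wnt3, the ligand that starts the streak, 1.79 and 1.24 (-0.32). Mixl1 is not in the table used here and Evx1 was below 1 FPKM in both libraries, so the fuller mesoderm programme was not compared.

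Signals that act on the streak were followed from ligands to targets. Among 13 FGF ligands and receptors 3 ligands were lower, Fgf8, Fgf18 (4.72 and 1.17 FPKM) and Fgf17 (44.6 and 20.0), while Fgf4, the main FGF of stem cells, had 44.4 and 53.2 (0.26). FGF feedback genes stayed within the size, with Dusp6, an ERK phosphatase, at 20.8 and 27.9 FPKM and Spry4, a feedback inhibitor, at 20.1 and 23.1. The list of 22 feedback and target genes had 1 lower, Sprr2a1, with 8.08 and 0.415 FPKM (-2.68). Sprr2a1 encodes a cornified envelope protein, not a feedback inhibitor. Under 1 FPKM in sorted cells, it entered the comparison through the unsorted library alone. Of 18 Wnt feedback and target genes 3 were lower, T, Sp5 and Notum (9.92, 3.49 and 5.01 FPKM in the first 3 libraries), an enzyme that inactivates Wnt proteins. Axin2, the broadest Wnt feedback gene, had 5.67 and 5.38 FPKM (-0.07), and Lef1, a mediator of Wnt signals, 9.66 and 7.38 (-0.35). In the Nodal and TGF-beta list 1 of 24 was lower, Gdf1, a Nodal partner, with 6.20 and 1.62 FPKM. Nodal had 39.2 and 53.3 FPKM (0.43), and its inhibitors Lefty1 and Lefty2 had 137 and 87.7 (-0.64) and 173 and 92.4 (-0.90). Of 21 BMP genes 1 was lower, Tfap2c, while the target Id1 had 31.0 and 36.5 FPKM (0.23) and Id2, of the same family of inhibitors, 13.7 and 24.9 (0.82).

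Keratins and some other genes of epithelia and endoderm were lower. Of 33 epithelial genes 7 were lower and 0 higher (median -0.51, and 0.087 with equal sums), and 1 with the trend removed. That gene was Krt19, with 22.9, 5.93, 1.87 and 1.29 FPKM. Krt8 and Krt18, which pair as filaments of simple epithelia, had 214 and 134 FPKM in unsorted and 89.5 and 58.3 in sorted cells. DR-ESC were lower still, at 27.1 and 25.2. Junction genes did not follow as a group: Cldn7, a tight-junction claudin, had 20.1 and 8.93 FPKM (-1.08), and Tjp1, a tight-junction scaffold, 21.0 and 27.5 (0.38). Of 23 endoderm genes 5 were lower (median -0.57, and 0.078 with equal sums). Amn, a receptor subunit of visceral endoderm, had 15.4, 4.18, 0.856 and 0.0238 FPKM, and Srgn, a granule proteoglycan, 36.1, 9.66, 8.64 and 48.0. Gata6, a transcription factor of endoderm, was level at 7.25 and 6.55 (-0.13). Secretory genes outside the lists included Pga5, a pepsinogen, with 15.9, 0.939, 4.37 and 31.5 FPKM, and Aqp8, a water channel, with 5.55, 0.373, 0.761 and 2.04.

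Further genes among the 15 lowest were of varied function. Igfbp4, a binding protein of insulin-like growth factors, had 11.9, 2.50, 12.1 and 34.3 FPKM. Pkdcc, a secreted tyrosine kinase, had 9.26, 1.77, 14.9 and 18.9. For both, DR-ESC equalled or exceeded the unsorted cells and the sorted cells stood alone as low. Ctsh, a lysosomal protease, had 9.36, 1.89, 2.37 and 11.3 FPKM, and Cpsf4l, a relative of an mRNA cleavage factor, 15.03, 3.20, 10.7 and 0.1203.

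Targets of ATF4 lay below their unsorted level throughout, many by more than 2-fold. ATF4 is a transcription factor whose protein builds up when amino acids run short or unfolded protein accumulates, and which switches on amino acid synthesis and transport. Of 23 compared genes 11 were lower, against 2.67% of all genes, and 0 were higher; every log2 ratio was below 0, from -1.59 to -0.08 (median -0.997). With the trend removed the median was -0.48 and 2 genes were lower, against 0.558% of all genes. With the trend of gene span removed as well, an alternative chosen after seeing the data, the median was -0.51. Atf4 itself had 212, 108, 91.5 and 75.7 FPKM (-0.97, and -0.30 with the trend removed).

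Enzymes of serine synthesis were at the low end. Psat1 had 206, 75.8, 75.8 and 81.1 FPKM (log2 ratio -1.43), Phgdh, the first enzyme of the pathway, 153, 65.4, 74.5 and 110 (-1.21) and Psph, the last, 33.9, 14.2, 11.6 and 10.01 (-1.20). Oct4-GFP-ESC were the highest of the 4 libraries, and the sorted cells and DR-ESC were close together. The mitochondrial folate enzymes Shmt2 (158 and 72.7 FPKM) and Mthfd2 (75.03 and 35.5) were lower as well, as were Gpt2, an alanine transaminase (21.8 and 8.93), and Pycr1, of proline synthesis (10.5 and 4.50). Pck2, the mitochondrial PEP carboxykinase, had 22.2, 8.35, 7.76 and 3.72 FPKM and Nupr1, a stress-induced chromatin protein, 52.3, 16.7, 18.5 and 0.761; these were the genes past the size with the trend removed (-1.002 and -1.14). Chac1, which degrades glutathione, had 19.4 and 7.89 FPKM, and Trib3, a pseudokinase that curbs ATF4, 27.4 and 13.1. Amino acid carriers and Asns, the asparagine synthetase, were lower in level but within the size: Asns had 140 and 79.4 (-0.82), Slc7a5 137 and 82.5 (-0.72) and Slc3a2, its partner chain, 148 and 82.5 (-0.83). Ddit4 (58.2 and 45.6) and Sesn2 (53.9 and 49.9), stress genes that restrain the kinase mTOR, and Cth, of cysteine synthesis (51.5 and 48.5), were nearly level, and above 0 with the trend removed (0.18, 0.42 and 0.44).

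The C/EBP-ATF response element, to which ATF4 binds with a partner, was searched on both strands as TGATGNAA in the promoter windows. It occurred in 6 of the 20 windows at hand for the list (30%), against 2.58% of those of 9336 compared genes and 4.51% of all 27025. The list was made of genes taken as ATF4 targets, so a high share can follow from that choice. It is no evidence about these libraries. The 5 matches upstream of the start are printed because they belong to genes described above, from RefSeq in GRCm38.p6 and in the direction of transcription, with the matched letters, on either strand, in capitals. The other match was in Trib3, inside the transcript. The stretches lie at chr2:119351033-119351072 (Chac1, plus strand), chr6:7693210-7693248 (Asns, minus), chr7:126625557-126625596 (Nupr1, minus), chr11:120643828-120643867 (Pycr1, minus) and chr14:55540147-55540186 (Pck2, plus).
Chac1: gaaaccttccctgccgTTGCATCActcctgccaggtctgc
Asns: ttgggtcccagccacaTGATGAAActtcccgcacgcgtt
Nupr1: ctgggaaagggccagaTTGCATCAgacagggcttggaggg
Pycr1: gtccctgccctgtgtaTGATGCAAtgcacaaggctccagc
Pck2: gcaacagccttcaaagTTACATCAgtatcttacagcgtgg
Log2 ratios of these 5 genes ran from -1.59 for Nupr1 to -0.82 for Asns. Binding of ATF4 to these stretches was not analysed here.

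**Figure D4:**
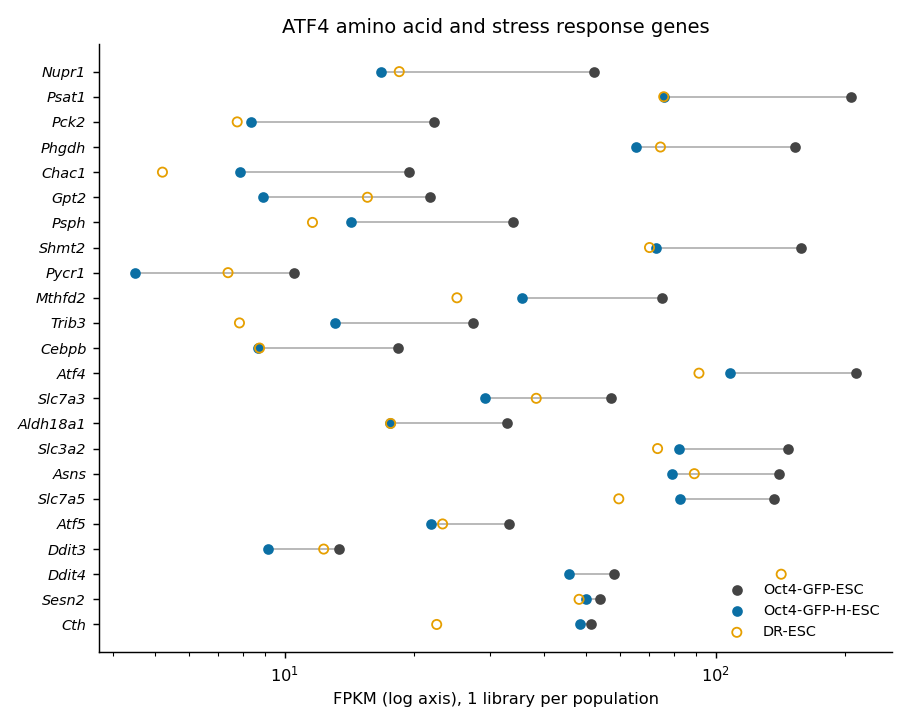
FPKM (log axis) of the 23 compared ATF4 genes in Oct4-GFP-ESC, Oct4-GFP-H-ESC and DR-ESC, 1 library each, ordered by log2 ratio. The sorted library lies to the left of the unsorted one for every gene, from Nupr1 (52.3 to 16.7 FPKM) to Cth (51.5 to 48.5).

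Neighbouring branches of metabolism differed less. In the serine, glycine and one-carbon list, which shares members with the ATF4 list, 7 of 23 were lower (median -0.65), and 0 with the trend removed. One of these outside the ATF4 list was Tdh, the threonine dehydrogenase on which mouse stem cells depend, with 394, 184, 53.4 and 0.306 FPKM (-1.10). Of 20 cytosolic aminoacyl-tRNA synthetases, which load tRNAs and form a list made after seeing the data, 2 were lower, Sars (130, 45.4, 47.7 and 50.3 FPKM) and Gars (249, 117, 114 and 71.4). Their median of -0.70 was -0.10 with the trend removed. Among 16 mitochondrial synthetases, listed likewise, 0 were lower (median -0.42, and -0.10).

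Sterol synthesis genes, which make cholesterol under control of the factor SREBF2, all had ratios below 0. Of 26 compared, 5 were lower and 0 higher (median -0.74). With the trend removed the median was -0.39 and 0 genes were past the size. Fdps, which makes farnesyl diphosphate, had 130, 44.8, 183 and 144 FPKM (-1.52), and Fdft1, the squalene synthase, 44.8, 19.16, 77.0 and 59.6 (-1.18). Insig1, a sterol sensor, had 30.5, 14.1, 98.3 and 145 FPKM (-1.06). In each of these genes the sorted cells were the lowest of the 4 libraries and DR-ESC above the unsorted cells. Srebf2 itself was closer, with 80.9 and 52.0 FPKM (-0.63). The sterol regulatory element, searched as TCACNCCAC on both strands, was in 1 of 18 windows at hand, that of Hmgcs1 (57.2 and 34.1 FPKM), against 1.46% of the compared genes. Of 16 fatty acid synthesis genes 1 was lower, Scd1, the stearoyl-CoA desaturase (13.1, 5.93, 48.7 and 36.4 FPKM), with a list median of -0.54 that was -0.18 with the trend removed.

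Housekeeping sets followed the abundance trend. Cytosolic ribosomal protein genes had 12 lower of 81 and a median of -0.90, which was -0.08 with the trend removed, when 0 were past the size. Nuclear-encoded respiratory chain genes had 1 of 73 (-0.72, then -0.06), mitochondrial ribosomal proteins 3 of 74 (-0.72, then -0.21), proteasome subunits 2 of 37 (-0.70, then -0.07) and glycolysis and hypoxia genes 3 of 36 (-0.67, then -0.12). Abundant genes help to set the running median, so its removal cannot tell their own difference from the trend. Within glycolysis, Tpi1, the triosephosphate isomerase, had 291, 124, 277 and 199.9 FPKM (-1.22), and Slc2a3, a glucose transporter, 360 and 409 (0.18). Cell cycle and replication genes had 0 of 45 past the size either way (median -0.43, then 0.10), with Mki67, a marker of proliferating cells, at 29.6 and 31.5 FPKM. Heat shock genes had a median of -0.54, or 0.10 without the trend and 0.11 with equal sums, with the inducible Hspa1a at 4.63 and 6.34 FPKM (0.38). Immediate early genes, which respond within minutes to a stimulus, had 0 of 26 past the size (median -0.20), with Fos at 19.3 and 13.0 FPKM (-0.54), Egr1 at 20.4 and 11.1 (-0.83) and Jun at 12.2 and 13.2 (0.10).

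A joint list of p53 targets and apoptosis genes was within the size as deposited, with a median above that of genes of like abundance. Of its 23 compared genes 0 were past the size as deposited (median -0.06), and 2 were higher with the trend removed (median 0.42). Of these, Mdm2, which degrades p53, had 50.7 and 70.9 FPKM (0.48, then 1.04) and Trp53inp1, a p53-induced nuclear protein, 20.3 and 31.7 (0.62, then 1.05). Cdkn1a, the p21 inhibitor of the cell cycle, had 50.3 and 58.5 (0.21, then 0.74), and Trp53 itself 304 and 207 (-0.55, then 0.16). A list of 25 actin-binding and adhesion scaffold genes and one of 16 basement membrane genes were made after seeing these ratios, so their place on the higher side reflects how they were chosen. Of the 25 scaffold genes 0 were past the size as deposited (median 0.14) and 6 were higher with the trend removed (0.66). Dst, a linker of filaments, had 16.4, 33.1, 43.1 and 22.8 FPKM (0.97), and Dag1, the laminin receptor dystroglycan, 34.2, 56.8, 63.2 and 29.4 (0.72). Basement membrane genes had 1 higher of 16 (median 0.24, then 0.69), Col4a5, a collagen chain, at 1.10 and 3.23 FPKM. Hspg2, the proteoglycan perlecan, had 56.8 and 94.8 (0.73), and Lama5, a laminin chain, 30.8 and 48.9 (0.65), while Lama1 had 48.1 and 35.3 (-0.44). These genes are long, with median spans of 87.7 kb for the scaffold list and 88.3 kb for the basement membrane list. With the trend of span removed too, the medians were 0.50 and 0.55.

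Fibroblast genes were level as deposited, with exceptions. Of 41 compared 1 was higher and 1 lower. The median was -0.03, or 0.24 with the trend removed and 0.56 with equal sums. Col1a1, of type I collagen, stood at 92.4 FPKM in both libraries against 2.03 and 2.06 in DR-ESC and NPC(GFP-), and Bgn, a matrix proteoglycan, 78.1, 75.2, 0.927 and 0.321. Lox, the enzyme that cross-links collagen, had 6.69, 18.4, 0.163 and 0.0722 FPKM (1.33) and was the higher gene. Thbs1, a matrix glycoprotein, had 46.4, 86.4, 2.06 and 10.3 (0.88, then 1.45). The lower gene was Ccl2, a chemokine, with 17.7, 8.06, 0.200 and 0.530 FPKM.

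Neuronal genes were lower in part. Of 16 compared 5 were lower, against 2.67% of all genes. The median was -0.61, or -0.23 with the trend removed and -0.06 with equal sums. With the trend removed 1 was lower, Stmn3, a stathmin (5.39 and 1.82 FPKM), and 1 higher, Neurod1, a proneural factor (1.33 and 3.56). Tubb3, the neuronal tubulin, had 47.3, 19.04, 18.6 and 342 FPKM, Stmn2, a regulator of microtubules, 117, 49.6, 30.1 and 59.0, and Gap43, a growth cone protein, 26.4, 11.2, 5.62 and 80.3. Of 13 neural progenitor genes 2 were lower, against 2.67% of all genes (median -0.53, and 0.11 with equal sums). These were Otx2 and Pax6, an eye and brain factor with 2.34, 0.540, 12.7 and 52.1 FPKM. Pax6 entered the comparison through the unsorted library alone, so its ratio had to be negative. Sox1, an early neural marker, was level at 3.73 and 4.11 FPKM (0.11).

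The remaining lists are to be read against 2.67% of all genes lower and 0.983% higher, or 0.558% and 1.78% with the trend removed. Interferon and antigen genes had 5 lower of 33 (median -0.49, and 0.029 with equal sums), led after Ifitm1 by Psmb8, an immunoproteasome subunit (5.42 and 1.59 FPKM), and Gbp2, a guanylate-binding protein (9.31 and 3.61). In the LIF and STAT3 list 4 of 27 were lower (median -0.48, and 0.14 with equal sums), including Msc, a helix-loop-helix repressor (11.5 and 3.85 FPKM), Sp5, and Socs2, a suppressor of cytokine signals (30.7 and 13.3). The core feedback gene Socs3 had 30.1 and 33.8 FPKM (0.16). Glutathione S-transferases, which conjugate glutathione to toxic compounds and form a list made after seeing the data, had 6 of 16 lower (median -0.58, and -0.01 with equal sums). Removal of the trend left 2 of them (-0.33), Gstt2 (13.0 and 4.92 FPKM) and Gstm3 (2.38 and 0.516). Of the 16, 3 were under 1 FPKM in sorted cells, Gstm3 among them. These 3 entered the comparison through the unsorted library alone, so their ratios had to be negative. Members of the Gstm cluster are similar in sequence, so reads may be shared. Trophoblast genes had 5 lower and 0 higher of 24 (median 0.04), 3 of the 5 being keratins. Among 44 DNA methylation and Polycomb genes 0 were past the size as deposited, and 3 were higher with the trend removed. These included Tet1 (26.7 and 41.9 FPKM) and Tet2 (8.81 and 14.8), which oxidise methylated DNA. Imprinted genes other than Dio3 included 1 lower, Phlda2, a growth restrainer of the placenta, with 60.1 and 22.7 FPKM.

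**Figure D5:**
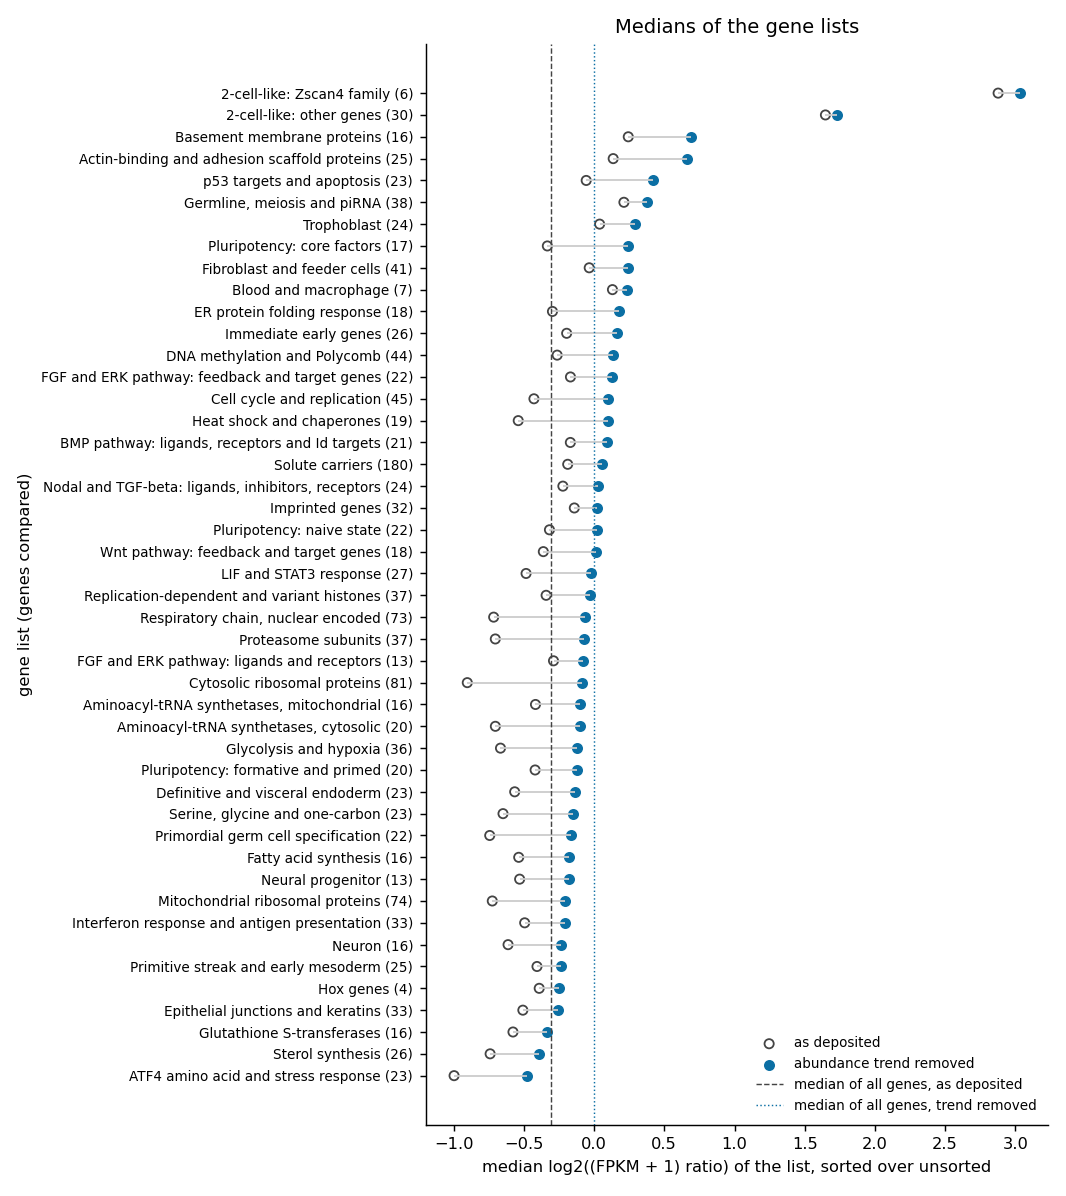
Median log2((FPKM + 1) ratio) of 46 gene lists as deposited (open) and with the abundance trend removed (filled), with the number of genes compared in brackets and lines at the medians of all genes. The Zscan4 and other 2-cell-like lists stand highest both ways (2.88 and 1.65 as deposited), and the ATF4 and sterol lists lowest with the trend removed (-0.48 and -0.39).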

How the data were processed

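Poly(A) RNA libraries were made from 4 populations, 1 library each; the 10 ChIP and input samples of the series were not used here. The deposited log2 values are log2(FPKM + 1) as judged from the values, and FPKM was recovered from them. The submitters' processing notes name build mm10 and the tools TopHat2 2.0.9, Bowtie 0.12.8, CASAVA 1.8, DESeq2 and HTSeq, without saying what each did. How the FPKM were computed, whether libraries were scaled further and whether strand was kept is not given in the sources used here. Depth is unknown, so no counting interval is given.

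Of 13199 table entries, 19 had symbols turned into dates and were left out. RefSeq GRCm38.p6 matched 11642 of the compared genes (97.0%), and 248 carry merged symbols of overlapping genes. Named genes are the 15 highest and 15 lowest that reach 5 FPKM on one side and are past the size also with the trend removed, the 6 leading members of each list, and genes set by name; others named for contrast within a list were chosen after their values were seen. Values of some list members are not reported here. The members and the 46 lists were chosen with earlier results of these data known, and 5 of the lists after seeing the data. The procedure was tested on simulated data, in which the changed genes had at least 5 FPKM in unsorted cells. Of the 118 higher genes 110 were under that level in unsorted cells, so the simulation does not cover them. Python 3.11.15, numpy 2.4.6, pandas 2.3.3 and matplotlib 3.10.9 were used.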

Additional observations from a re-analysis of the deposited data

How the results depend on the processing

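The counts of genes past the size depend on the scale and the scaling. The medians kept their sign under every setting tried for the Zscan4 list (1.58 to 3.56), the other 2-cell-like genes (0.65 to 3.08), the ATF4 list (-1.06 to -0.39) and the sterol list (-0.81 to -0.15), while that of the streak list ran from -0.64 to 0.08 with equal sums. However, 3 of the 6 Zscan4 genes and 27 of the 30 others entered the comparison through the sorted library alone. Their ratios had to be positive, so the kept sign of both 2-cell-like medians is not a check. Against 118 higher and 320 lower, a pseudocount of 0.1 gave 241 and 564, and one of 5 gave 32 and 121. A minimum of 5 FPKM gave 53 higher, and a 4-fold size 37 and 12. Setting the median ratio of expressed genes to 0 gave 305 and 49 (median of all genes 0.06), and equal sums of FPKM 586 and 26 (0.26). Removing the abundance trend gave 214 and 67, or 210 and 65 with a wider window of the running median, and removing the span trend too, an alternative chosen after seeing the data, 199 and 60. Of 413 list medians recomputed, 88 changed sign, 9 of them in lists with a median of at least 0.5 in size. With equal sums these 9 included endoderm (0.078), heat shock (0.11), neural progenitor (0.11) and epithelial genes (0.087). Heat shock genes changed sign also with the trend removed (0.10, 0.063 with the wider window and 0.17 with span), and with span the respiratory chain (0.025) and cytosolic ribosomal genes (0.031) did. Of 406 recomputed ratios of named genes 53 changed sign, 0 of them in genes past the 2-fold size. Most of the named genes past the size were picked for large ratios that also held with the trend removed. That 0 therefore follows from the choice and is not a check. No paired analysis was possible because each population has 1 library. No replicate could be left out.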
